A study of Homo sapiens with 6 samples.

Results

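The genes described here are 10 inhibitors of TGFβ signaling, SKI, SKIL, PMEPA1, BAMBI, SMURF1, SMURF2, TGIF1, TGIF2, LDLRAD4 and NEDD4L. They were taken by symbol from the 57773 genes of the deposited count table, and each symbol was found once. The RNA came from HepG2, a human hepatocellular carcinoma cell line, grown in MEM with fetal bovine serum. By the study's methods the medium was replaced with MEM without serum before ligand or vehicle was added. Recombinant human TGFB1 ligand at 5 ng/mL was given to 3 cultures and vehicle to 3 cultures, all for 3 h. The cultures carry the numbers 1 to 3 in both groups, and a TGFβ culture is paired below with the vehicle culture of the same number. One cell line was studied at 1 dose and 1 time, which limits these groups as a model of hepatocytes.

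TGFβ binds a pair of receptor kinases, which phosphorylate SMAD2 and SMAD3. These join SMAD4 and enter the nucleus, where they switch genes on or off together with other factors. Cells limit this signal at several steps. SKI and SKIL (also called SnoN) bind the SMAD complex and bring corepressors to it, TGIF1 and TGIF2 are homeodomain proteins that repress SMAD targets, PMEPA1 and LDLRAD4 are related membrane proteins that keep SMAD2 and SMAD3 from the receptor, BAMBI is a receptor without a kinase, and SMURF1, SMURF2 and NEDD4L are HECT ubiquitin ligases that mark receptors or SMADs for degradation. Several of these genes are widely known as targets of the pathway they inhibit.

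The libraries held 60815385 to 100099136 reads assigned to genes. Hepatocyte markers were present in every culture (ALB between 3405 and 4171 RPKM, HNF4A between 49.4 and 55.9 RPKM), and TTR, another of the 6 hepatocyte markers, was between 11.5 and 24.6 RPKM. The summed RPKM of 5 fibroblast or stellate cell markers was between 1.33 and 1.57 with vehicle and between 2.21 and 3.69 with TGFβ, from COL1A1 and PDGFRB, while COL3A1, DCN and LUM did not exceed 0.0172 RPKM. The sum of 4 blood cell markers was at most 1.45 RPKM with vehicle and 1.58 with TGFβ, with CD3E at 0 reads throughout and PTPRC at no more than 1 read, and that of 2 endothelial markers, CDH5 and VWF, was at most 0.0286 and 0.0253 RPKM. The part of other cells in the changes below was not tested, and fewer cells of a type and less RNA per cell cannot be told apart in such bulk samples.

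After 3 h of TGFβ, 8 of the 10 inhibitors were higher, NEDD4L was lower, and TGIF2 did not pass the test. PMEPA1 rose by 19.8-fold, SKIL by 5.45-fold, SKI by 2.36-fold and LDLRAD4 by 2.01-fold, and TGIF1, BAMBI, SMURF2 and SMURF1 rose by 1.44- to 1.82-fold. The test was edgeR's quasi-likelihood test on the counts of the 22747 genes with enough reads, adjusted over these genes by Benjamini-Hochberg (FDR, threshold 0.05), and all 10 inhibitors were among them. Of all tested genes, 3.11% passed as higher and 1.01% as lower. Over the 10 inhibitors the median log2 fold change was 0.82, against -0.0054 over all tested genes. The inhibitors were chosen with earlier results of these data known, so this comparison only describes them. Cultures with the same number deviated together, and with this number as a block in the fit TGIF2 passed too (FDR 0.0334), so that 8 inhibitors were higher and 2 were lower, against 8.08% and 3.75% of all tested genes.

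None of the 10 inhibitors overlapped between the groups. In the 8 that rose, the lowest TGFβ culture exceeded the highest vehicle culture, as in 10.4% of all tested genes, and in NEDD4L and TGIF2 every TGFβ culture was below every vehicle culture, as in 8.23%. For a single gene with 3 cultures against 3 the exact two-sided permutation test gave P = 0.1 for each of the 10, the smallest value this design allows.

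**Figure D1:**
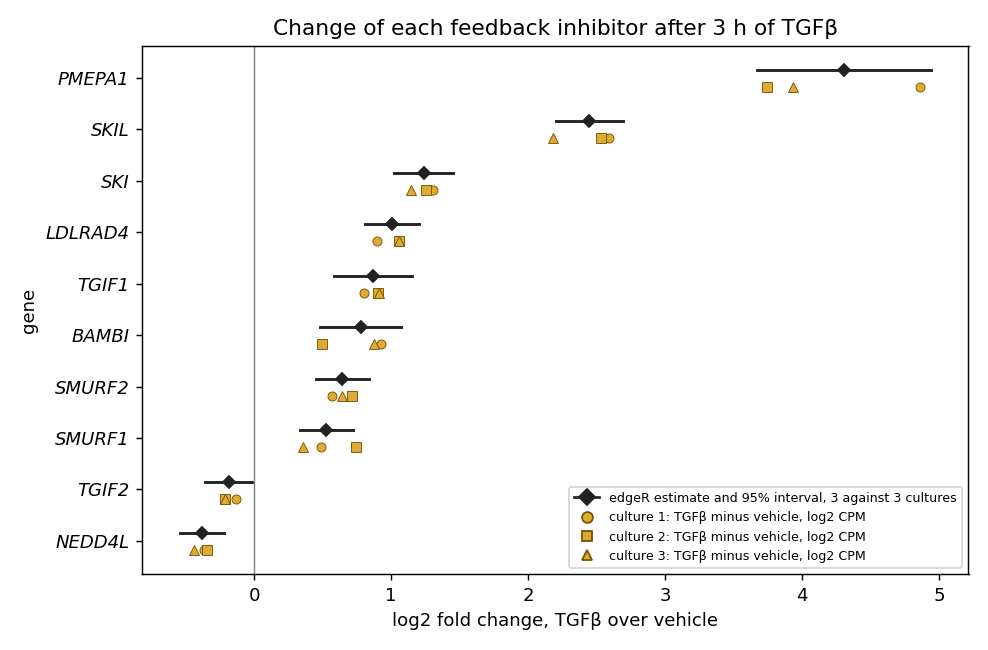
The log2 fold change of the 10 inhibitors, TGFβ over vehicle, on the horizontal axis, with 1 gene per line of the vertical axis. Diamonds and bars are the edgeR estimate and its 95% interval from 3 against 3 cultures, and the yellow circle, square and triangle are the differences in log2 CPM between the TGFβ and vehicle cultures numbered 1, 2 and 3. All 3 differences lie on the same side of 0 for every gene, and the interval of TGIF2 ends at -0.0087.

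SKI and SKIL, the SMAD corepressors, gained most reads. Values per culture are given as CPM, the reads of a gene scaled to the library size after TMM normalization, in the order of cultures 1, 2 and 3. SKI (ENSG00000157933, hg19 chromosome 1 from 2160134 to 2241558) had 102, 88.4 and 95.1 CPM with vehicle and 253, 211 and 209.9 CPM with TGFβ. Each TGFβ culture was thus well above the highest vehicle culture, and the log2 fold change was 1.24 (standard error 0.09, 95% interval from 1.02 to 1.45, FDR 9.92e-05). SKIL (ENSG00000136603, chromosome 3 from 170075466 to 170114623) had 22.1, 24.4 and 23.5 CPM with vehicle and 133, 141 and 107 CPM with TGFβ. Its vehicle cultures lay close together, its lowest TGFβ culture was number 3, and the log2 fold change was 2.45 (standard error 0.11, FDR 8.43e-06). Its fold change was the 31st highest of all tested genes, and that of SKI the 245th. SKI had the larger gain in reads nonetheless. The difference between the group means was 129 CPM for SKI and 104 CPM for SKIL, which are 38.8% and 31.2% of the summed gain of the 8 inhibitors that rose.

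The change of SKIL and SKI can also be read as a ratio within each library, which does not depend on library scaling. The log2 ratio of SKIL to SKI reads was -2.21, -1.86 and -2.02 with vehicle and -0.92, -0.58 and -0.97 with TGFβ. It rose by 1.20 (standard error 0.16), that is 2.30-fold, and the groups did not overlap (exact two-sided permutation test, P = 0.1, adjusted over 4 related pairs P = 0.133). Per length, SKIL made up 16.1% ± 1.63 (SD, n = 3) of the summed RPKM of SKI and SKIL with vehicle and 30.6% ± 3.18 (SD, n = 3) with TGFβ. RPKM, as the authors deposited it, is the read count scaled to gene length and library size.

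The sequence upstream of SKI and SKIL is shown because they differ in the number of SMAD boxes. This short element, CAGAC, can be bound by SMAD3 and SMAD4. On the opposite strand it reads GTCTG, and both were counted. In the 500 bases before the start of the Ensembl canonical transcript in GRCh37, SKIL held 6 SMAD boxes, a number reached by 44 of 21225 promoters of tested genes (0.207%). SKI held 0, as did PMEPA1, and a link of box number to fold change was not tested. The first 126 bases of this window, the end farthest from the start site, are given for each gene 5′ to 3′ on the plus strand of GRCh37, with SMAD boxes in capitals. For SKIL it is chr3:170075003-170075128 and for SKI it is chr1:2159258-2159383.
SKIL: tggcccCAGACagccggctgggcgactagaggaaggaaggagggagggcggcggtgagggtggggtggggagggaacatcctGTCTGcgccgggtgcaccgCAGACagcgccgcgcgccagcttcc
SKI: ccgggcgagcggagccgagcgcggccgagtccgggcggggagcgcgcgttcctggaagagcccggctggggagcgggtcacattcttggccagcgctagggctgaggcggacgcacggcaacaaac

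The other 3 boxes of SKIL begin 374, 271 and 107 bases upstream of the start site. Over the 10 inhibitors, BAMBI held 2 boxes, SMURF1 and LDLRAD4 held 1 each, and SMURF2, TGIF1, TGIF2 and NEDD4L held 0 in the same window. Thus 4 of the 10 had at least 1 box, against 60.2% of the promoters of all tested genes. The GC-rich SMAD site GGCGC, searched on both strands with overlapping matches each counted, was present at all 10, against 65.8% of promoters. SKI held 18 of these sites, SKIL and BAMBI 11, TGIF2 9 and TGIF1 1, and the median was 6 over the inhibitors and 2 over all tested promoters. Those of SKI begin at most 356 bases upstream of the start site, outside the stretch shown. The GC-rich site consists of G and C alone, and the base composition of the windows was not compared. The tested genes also include noncoding RNA genes and pseudogenes. The AP-1 site TGANTCA was found only at TGIF1 among the 10, against 9.74% of promoters. These matches describe the letters of 1 window at 1 start site per gene, and say nothing of binding. The start site used lies 38564 bases downstream of the 5′ end of the counted gene for TGIF1, 1521 for PMEPA1 and 1262 for LDLRAD4. For the other genes the 2 positions lie within 376 bases. Other start sites were not searched.

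PMEPA1 had the largest fold change of the 10 inhibitors and the lowest level. PMEPA1 (ENSG00000124225, chromosome 20 from 56223448 to 56286592) was counted with 8, 18 and 13 reads under vehicle and with 323, 259 and 261 reads under TGFβ. In CPM these were 0.0906, 0.217 and 0.211 with vehicle and 3.33, 3.22 and 3.58 with TGFβ. The gene was thus close to undetected without ligand, and its 3 TGFβ cultures differed little from each other. The log2 fold change was 4.30 (standard error 0.28, 95% interval from 3.67 to 4.94, FDR 4.41e-05), the 6th highest of all tested genes. With 8 reads in vehicle replicate 1, PMEPA1 passed the filter on low counts only through its TGFβ cultures. Genes with almost no vehicle reads can enter the tested genes in this way and take high ranks. The width of the interval goes with the 39 reads in the vehicle group. Scaled by library size, the 843 reads with TGFβ were 20.1 times those with vehicle (exact 95% interval 14.6 to 28.5, for counting error alone). Within pairs the log2 CPM rose by 4.86, 3.74 and 3.93 for cultures 1, 2 and 3, and without vehicle replicate 1, which had the fewest reads, the log2 fold change was 3.96 (FDR 0.000219). GENCODE on GRCh37 places NKILA on the other strand over the 5′ end of PMEPA1, from 56285212 to 56287836, and the count table used here has no row for it. The use of strand in counting is not given in the sources used here, so reads of the 2 genes cannot be told apart.

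LDLRAD4, the relative of PMEPA1, rose by less from a higher level. LDLRAD4 (ENSG00000168675, chromosome 18 from 13217497 to 13652754) had 12.3, 12.6 and 11.9 CPM with vehicle and 23.0, 26.1 and 24.7 CPM with TGFβ. The groups lay far apart relative to the spread within each, and the log2 fold change was 1.01 (standard error 0.09, FDR 0.000203). PMEPA1 made up 4.03% ± 1.63 (SD, n = 3) of the summed RPKM of the pair with vehicle and 29.1% ± 1.91 (SD, n = 3) with TGFβ. The log2 ratio of PMEPA1 to LDLRAD4 reads rose by 3.33 (standard error 0.41), a 10.1-fold change of the ratio (exact two-sided permutation test, P = 0.1, adjusted over 4 pairs P = 0.133). Smaller genes that lie within LDLRAD4 in the table had at most 88 reads in any culture, against 731 to 2230 for LDLRAD4.

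**Figure D2:**
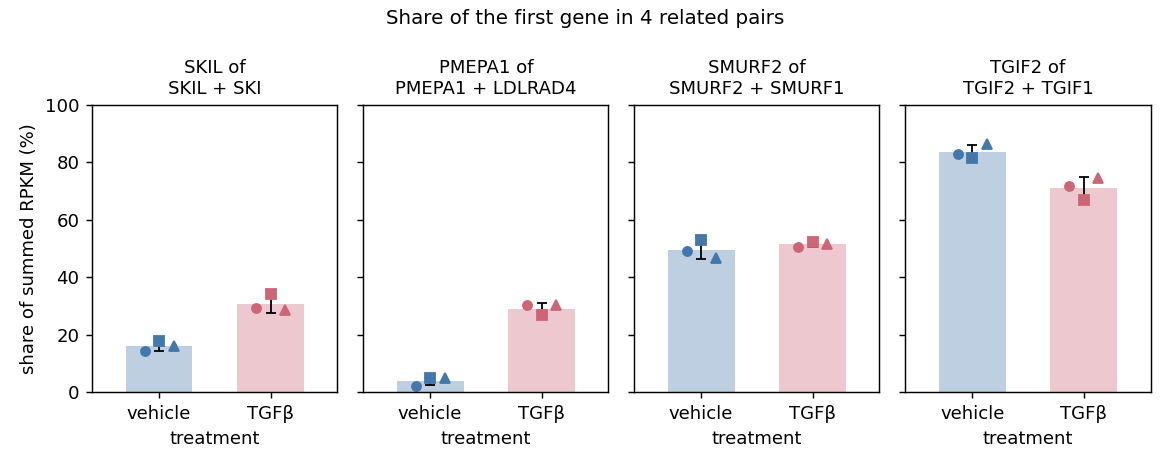
Share of the first-named gene in the summed RPKM of 4 related pairs, in percent, with vehicle and with TGFβ. Bars are means of 3 cultures with the SD, and circles, squares and triangles are cultures 1, 2 and 3. The shares of SKIL and PMEPA1 are higher and that of TGIF2 is lower under TGFβ with no overlap of the groups, and the shares of SMURF2 overlap.

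BAMBI, the receptor without a kinase, rose by an amount that differed between the pairs. BAMBI (ENSG00000095739, chromosome 10 from 28966271 to 28971868) had 21.0, 19.6 and 17.6 CPM with vehicle and 39.9, 27.6 and 32.2 CPM with TGFβ. The TGFβ cultures were all above the vehicle cultures, with culture 1 highest and culture 2 lowest. The log2 fold change was 0.78 (standard error 0.13, FDR 0.00917), and within pairs it was 0.93, 0.49 and 0.87. Without vehicle replicate 3 BAMBI missed the threshold (log2 fold change 0.71, FDR 0.056).

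The ubiquitin ligases did not move as a group. SMURF1 and SMURF2, which bind inhibitory SMADs and target the receptor, both rose. SMURF1 (ENSG00000198742, chromosome 7 from 98625061 to 98741723) had 42.2, 39.2 and 46.4 CPM with vehicle and 59.0, 65.8 and 59.4 CPM with TGFβ, and its log2 fold change was 0.53 (SE 0.09, FDR 0.00734). SMURF2 (ENSG00000108854, chromosome 17 from 62538413 to 62658186) had 45.2, 48.7 and 45.0 CPM with vehicle and 67.0, 80.0 and 70.0 CPM with TGFβ, and its log2 fold change was 0.64 (SE 0.09, FDR 0.00237). For both genes culture 2 was the highest with TGFβ, and the groups did not overlap. The end of SMURF1 overlaps AC004893.11 in the table, with 588 to 1107 reads and a log2 fold change of 0.45 (FDR 0.056). That of SMURF2 overlaps CEP95, at 0.022 (FDR 0.950). Reads of these overlaps may have come from either gene. The ratio of SMURF2 to SMURF1 moved little. SMURF2 made up 49.5% ± 3.12 (SD, n = 3) of the summed RPKM of the pair with vehicle and 51.5% ± 0.859 (SD, n = 3) with TGFβ, and the log2 ratio of SMURF2 to SMURF1 reads changed by 0.11 (standard error 0.11), which was within the spread between cultures (exact two-sided permutation test, P = 0.4, adjusted over 4 pairs P = 0.4). Leaving out vehicle replicate 2 gave a change of 0.21, and leaving out vehicle replicate 3 gave 0.028.

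NEDD4L, a HECT ligase that acts on phosphorylated SMAD2 and SMAD3 and on sodium channels, went the other way. NEDD4L (ENSG00000049759, chromosome 18 from 55711599 to 56068772) had 191, 187 and 179.7 CPM with vehicle and 147.5, 147 and 133 CPM with TGFβ. The log2 fold change was -0.38 (standard error 0.07, 95% interval from -0.55 to -0.22, FDR 0.0152), and within pairs it was -0.37, -0.35 and -0.44. Every TGFβ culture was below every vehicle culture. The call was lost without vehicle replicate 2 (FDR 0.0658) and without vehicle replicate 3 (FDR 0.056). In the table a gene on the other strand, RP11-845C23.3 (ENSG00000267396, from 56065895 to 56067314), overlaps its 3′ end. RP11-845C23.3 had a log2 fold change of -0.53 (FDR 0.0441), and reads of the overlap may have come from either gene. It had between 465 and 973 reads per culture, against 9671 to 16820 for NEDD4L.

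TGIF1 and TGIF2, the homeodomain repressors, differed in their response. TGIF1 (ENSG00000177426, chromosome 18 from 3411606 to 3458409) had 33.1, 33.7 and 25.6 CPM with vehicle and 57.6, 63.0 and 48.1 CPM with TGFβ. Culture 3 was the lowest in both groups. The log2 fold change was 0.87 (standard error 0.13, FDR 0.00402), with a standard error of 0.06 with the replicate number as a block, and the pairs gave 0.80, 0.90 and 0.91. TGIF2 (ENSG00000118707, chromosome 20 from 35201891 to 35222353) had 92.3, 84.7 and 92.6 CPM with vehicle and 84.2, 73.1 and 80.0 CPM with TGFβ. Its highest TGFβ culture was only just below its lowest vehicle culture, and the log2 fold change of -0.18 (standard error 0.08, 95% interval from -0.36 to -0.0087) did not pass (FDR 0.331). The same change was called with the block (log2 fold change -0.19, FDR 0.0334). A rise of TGIF2 to the extent of TGIF1 lies outside this interval. TGIF2 made up 83.6% ± 2.49 (SD, n = 3) of the summed RPKM of the pair with vehicle and 71.1% ± 3.77 (SD, n = 3) with TGFβ. The log2 ratio of TGIF2 to TGIF1 reads fell by 1.06 (standard error 0.22) with no overlap of the groups (exact two-sided permutation test, P = 0.1, adjusted over 4 pairs P = 0.133). The read-through gene TGIF2-C20orf24 shares the TGIF2 locus, and had between 10028 and 18532 reads and a log2 fold change of 0.06 (FDR 0.870). RP5-977B1.11 also spans this locus, with 611 to 1118 reads and a log2 fold change of 0.25 (FDR 0.451). Reads of shared exons cannot be assigned to any of these genes with certainty.

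**Figure D3:**
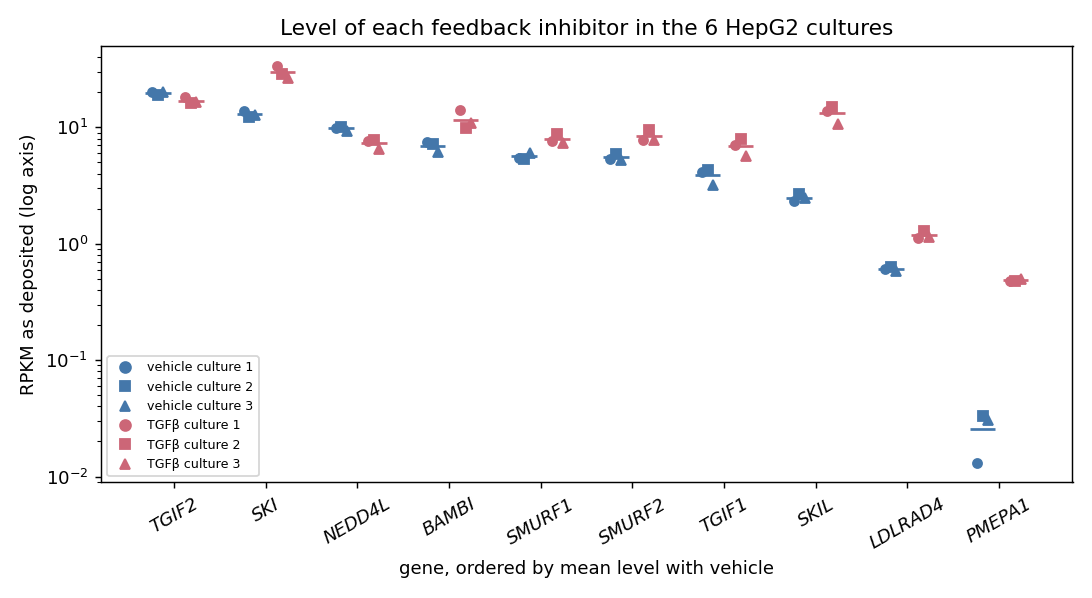
Deposited RPKM (log axis) of the 10 inhibitors in each culture, in blue for vehicle and red for TGFβ, with horizontal bars at the means and genes ordered by their mean level with vehicle. Levels with vehicle run from 19.6 for TGIF2 to 0.0256 for PMEPA1, and SKIL moves from the 8th to the 3rd place of the order with TGFβ.

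Compared per length, the levels of the 10 inhibitors changed their order with TGFβ. With vehicle the mean RPKM was highest for TGIF2 (19.6 ± 0.535, SD, n = 3), followed by SKI (13.0 ± 0.715), NEDD4L (9.78 ± 0.405), BAMBI (6.93 ± 0.647), SMURF1 (5.61 ± 0.379), SMURF2 (5.50 ± 0.380), TGIF1 (3.86 ± 0.616), SKIL (2.48 ± 0.170), LDLRAD4 (0.605 ± 0.0296) and PMEPA1 (0.0256 ± 0.0108). Only SMURF1 and SMURF2 overlapped among neighbors of this order. With TGFβ, SKI was highest (29.8 ± 3.61), and TGIF2 (16.8 ± 1.08), SKIL (13.2 ± 2.27) and BAMBI (11.6 ± 2.17) followed. SKIL and BAMBI overlapped. The next 4 genes formed a close group, SMURF2 (8.38 ± 1.00), SMURF1 (7.89 ± 0.718), NEDD4L (7.31 ± 0.668) and TGIF1 (6.88 ± 1.15), in which each neighbor overlapped the next. LDLRAD4 (1.18 ± 0.0964) and PMEPA1 (0.484 ± 0.00934) kept the last places. NEDD4L moved from the 3rd to the 7th place and SKIL from the 8th to the 3rd. The 19.8-fold rise of PMEPA1 thus left it below every other inhibitor, and its gain of 3.20 CPM was 0.964% of the summed gain in reads of the 8 genes. Together the 10 inhibitors held 546 CPM with vehicle and 824 CPM with TGFβ.

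Genes whose values over the 6 cultures were closest to those of SKIL and PMEPA1 were found by the Euclidean distance between log2 CPM values centered on the vehicle mean, leaving out the inhibitors and genes that overlap them. Those nearest to SKIL were AC007362.1 (distance 0.24, log2 fold change 2.60), SPACA6P-AS (distance 0.27, log2 fold change 2.66) and PFKFB3 (distance 0.40, log2 fold change 2.28), a regulator of glycolysis. AC007362.1 and SPACA6P-AS had 35 to 49 and 9 to 16 reads with vehicle, far fewer than SKIL. Nearest to PMEPA1 (log2 fold change 4.30) were AC012531.23 (distance 0.83, log2 fold change 5.25), ECEL1P2 (distance 0.96, log2 fold change 8.08) and HOXC12 (distance 1.06, log2 fold change 5.15). AC012531.23 and HOXC12 overlap and each had 2 or 3 reads in every vehicle culture, while ECEL1P2 had 0. The prior count of 2 in log2 CPM draws such low counts together, so these distances understate the differences in fold change. The likeness rests on 6 cultures and mostly on the difference between the groups.

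The other genes of the pathway were followed in 6 lists, chosen with earlier results of these data known. They held 65 genes, of which 55 had enough reads. Of these, 13 were higher and 2 were lower, against 3.11% and 1.01% of all tested genes. With the block 19 were higher and 3 were lower, against 8.08% and 3.75%. Of the 8 SMADs, 4 were higher and 0 were lower at this threshold (6 and 0 with the block), with a median log2 fold change of 0.53. They included the inhibitory SMAD7 (log2 fold change 1.72, standard error 0.11, FDR 3.73e-05), with 15.1 CPM on average with vehicle and 49.9 CPM with TGFβ, and the inhibitory SMAD6 (log2 fold change 1.12, FDR 0.0075). SMAD3 (0.90), which carries the TGFβ signal, and SMAD9 (0.72), which carries that of BMP ligands, also rose, and SMAD9 missed the threshold without vehicle replicate 3 (FDR 0.06). Of the 11 secreted antagonists and co-receptors only 6 had enough reads, and 3 of these rose, all secreted antagonists of activin or nodal ligands. They were FSTL3 (log2 fold change 1.87, FDR 0.000103), FST (1.24, FDR 0.00325) and LEFTY1 (1.57, FDR 0.0153), of which LEFTY1 was lost without vehicle replicate 2 (FDR 0.0551) and FST without a filter on low counts (FDR 0.114).

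Receptors moved in both directions, 3 higher and 2 lower of 11 tested (4 higher and 3 lower with the block). Over all tested genes 3.11% were called higher and 1.01% lower (8.08% and 3.75% with the block). BMPR2 (2.83-fold, FDR 4.41e-05) and ACVR1 (1.90-fold, FDR 0.000582), receptors of BMP ligands, were higher, and the third was TGFBR1, named after its value was seen (log2 fold change 0.43). TGFBR2, a receptor that binds TGFβ itself, had a mean of 349 CPM with vehicle and 181 CPM with TGFβ (log2 fold change -0.95, FDR 0.000543). TGFBR3 (-0.57, FDR 0.0392) lost its call in 5 of the 6 fits that left out a culture, with an FDR of up to 0.184, and kept it without vehicle replicate 1 (FDR 0.0119). It also missed the threshold with limma-voom (FDR 0.0511), and it passed with the block (FDR 3.24e-05) and with DESeq2 (FDR 0.00171). Within pairs its log2 CPM differed by -0.47, -0.56 and -0.66. None of the 12 other ubiquitin ligases and deubiquitinases passed in edgeR's quasi-likelihood test, while 2 were higher at an unadjusted P under 0.05, 2 with the block and 1 with DESeq2, and their median log2 fold change was 0.09. At that unadjusted P, 1976 of the 22747 tested genes were higher. The 12 other ubiquitin ligases and deubiquitinases include HECT ligases related to SMURF1, SMURF2 and NEDD4L. These are WWP1 (0.31, FDR 0.142), WWP2 (0.07, FDR 0.799), ITCH (0.14, FDR 0.590) and NEDD4 (0.025, FDR 0.958). WWP1 passed with the block (FDR 0.00766) and without TGFβ replicate 3 (FDR 0.0267). Of 13 nuclear corepressors tested, 2 were higher, among them PRDM16 (log2 fold change 0.84, FDR 0.0488), which lost the call in each of the 6 fits that left out a culture (FDR 0.0659 to 0.221). The SKI relatives SKOR1, with 6 to 12 reads per culture, and SKOR2, with 0 to 3 reads, had too few reads. Of the 5 other intracellular modulators only PPM1A, a phosphatase of SMAD2 and SMAD3, passed (0.40, FDR 0.0114), and it was lost without vehicle replicate 2 (FDR 0.06), vehicle replicate 3 (FDR 0.0731), TGFβ replicate 1 (FDR 0.0652) or TGFβ replicate 2 (FDR 0.0575).

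**Figure D4:**
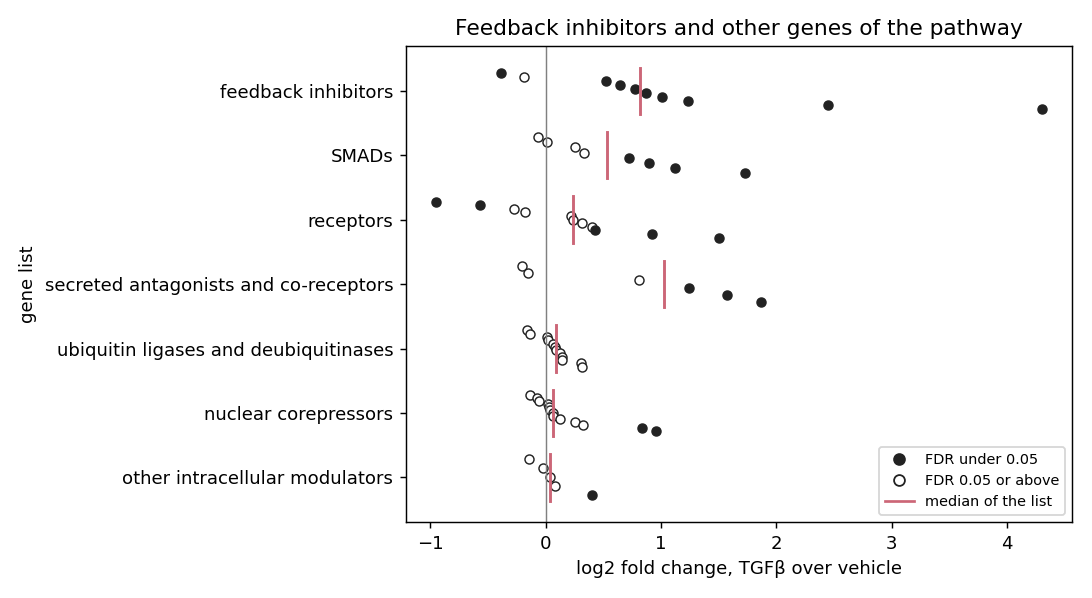
The log2 fold change, TGFβ over vehicle, of each tested gene in the 10 feedback inhibitors and in 6 other lists of the pathway. Filled points passed an FDR of 0.05, open points did not, and red lines are list medians, which run from 0.04 for other intracellular modulators to 1.03 for secreted antagonists and co-receptors and are 0.82 for the feedback inhibitors.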

How the data were processed

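RNA-sequencing of 6 HepG2 cultures (3 vehicle, 3 TGFβ) was used. The authors mapped read pairs to hg19 (TopHat2 2.0.6), counted reads per gene with HTSeq within MAPRseq, and deposited raw counts and RPKM for each culture. The annotation release and the strand setting were not given in the sources used here. The deposited RPKM values served only for levels per length. Counts were tested in R 4.3.3 with edgeR 4.0.16 (TMM, filterByExpr, robust quasi-likelihood, no block). Standard errors were derived from the F statistic, log2 CPM used a prior count of 2, and pair ratios a prior count of 0.5. The script was tested on simulated data. Same-numbered cultures deviated together (r across genes 0.366, 0.227 and 0.316, at most 0.0101 between different numbers). By the labels, pairs 1 and 2 shared a lane each, while cultures 3 ran on lanes 4 and 5. Counting noise alone did not account for the spread within groups (chi-square per gene 21.0 to 46.2). The paper's methods call them biological replicates, while the labels do not state separate cultures, so P-values measure the spread between these samples. Promoters were read from GRCh37 with pysam 0.24.0 and GENCODE start sites. Members and lists were chosen with earlier results of these data known. Of the other lists, at most 4 called genes each and relatives of the members were named. PECAM1, a listed endothelial marker, was not analysed here. One gene that the naming rule selected is not reported here.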

Additional observations from a re-analysis of the deposited data

How the results depend on the processing

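The 10 inhibitors were refitted under 13 alternatives, and all 129 fold changes obtained had the direction given above; 125 also stayed on the same side of the FDR threshold, 3 lost it and 1 gained it. PMEPA1 had no value with at least 10 counts in every library, since vehicle replicate 1 had 8 reads. With the replicate block, 2 inhibitors instead of 1 were lower, TGIF2 being the gain, and the other lists had 19 genes higher and 3 lower; the block changed no call of another inhibitor. With single cultures left out, 7 to 8 inhibitors were higher and 0 to 1 lower, 0 without vehicle replicate 2 or 3, and 1 to 2 genes of the other lists were lower, 1 in every case but without vehicle replicate 1. With limma-voom 1 gene of the other lists was lower. The cause of these shifts was not tested. NEDD4, which was not called, changed sign with total-count scaling (-0.019) and ranged from -0.079 to 0.12 with single cultures left out. Over all genes the block called 1837 genes higher and 853 lower, against 707 and 230, and leaving out vehicle replicate 3 left 394 and 91. The median log2 fold change of all genes was -0.047 with total-count scaling. The log2 ratios of the 4 pairs kept their direction under every alternative tried, with sign-flip tests over 3 pairs that cannot give a P below 0.25. The order of levels was the same in 10 of 10 places with counts per kilobase scaled to the TMM library size. Both measures use the same counts and gene lengths, so this order could hardly change, and other lengths were not tried. The 39 vehicle reads of PMEPA1 limit its precision.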
